A study of Mus musculus with 12 samples.

Results

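The vascular endothelial growth factor (VEGF) system was examined as 9 genes, the ligands Vegfa, Vegfb, Vegfc and Pgf, the receptors Flt1, Kdr and Flt4 and the co-receptors Nrp1 and Nrp2. They were chosen by gene symbol, as the array rows with exactly 1 symbol, and are 9 of the 19938 genes measured. Each had 1 transcript cluster, which is the set of array probes for a gene. RNA from pooled islets of RIP1-Tag2 mice (8 weeks old, C57BL/6 background) was hybridised to 12 Affymetrix mouse gene arrays, 6 of angiogenic islets and 6 of non angiogenic islets. All mice carried the transgene, in which the rat insulin promoter drives the SV40 T antigen in beta cells, so both groups were early tumor islets of the same genotype and age, sorted by their appearance. The arrays of a group are numbered as replicates, and the study describes its expression values as coming from a pair of independent profiling experiments. Whether each array had a pool of its own, how many mice a pool held and whether pools shared mice is not given in the sources used here, so the p-values cover only the variation among these 12 arrays, part of which may be technical.

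VEGF-A is the main ligand that drives the sprouting of new vessels, and islet beta cells are a known source of it. It binds VEGFR1 and VEGFR2, encoded by Flt1 and Kdr. VEGFR2 carries most of the growth and permeability signal in endothelial cells, while VEGFR1 binds the ligand tightly and signals weakly, and a soluble splice form of it acts as a trap. VEGF-B and placental growth factor (Pgf) bind VEGFR1, and VEGF-C binds VEGFR3, encoded by Flt4, which is typical of lymphatic endothelium and is also found on sprouting and fenestrated blood vessels. Neuropilins 1 and 2 are co-receptors shared with the class 3 semaphorins and are not restricted to endothelium.

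All values are log2 levels as deposited, in which a difference of 1 is a 2-fold change, and each comparison is angiogenic minus non angiogenic islets. Differences were tested with limma over all genes with Benjamini-Hochberg adjustment, and a gene was called at an adjusted p under 0.05. The arrays were taken as 2 sets by replicate number, replicates 1-3 and replicates 4-6, a split that no label gives and that was chosen with these data known. Which arrays belong to which profiling experiment is not given in the sources used here. With group in the model, 36.9% of all genes differed between replicates 4-6 and replicates 1-3. Each set has 3 angiogenic and 3 non angiogenic arrays, so the difference within a set and the fit blocked on the set are given as well. The median level of an array lay between 7.30 and 7.38.

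Kdr and Nrp2 were up-regulated in angiogenic islets, and none of the 4 ligand genes passed the test. Of the 9 genes, limma called 2 higher, against 3.55% of all genes, and 0 lower, against 0.948% of all genes. At an unadjusted p under 0.05 from limma 5 were higher, the 3 receptors and both co-receptors, against 7.76% of all genes, and 0 were lower, against 6.59%. The per-gene 2-group test of the study's methods, after adjustment, called 2 higher and 0 lower, against 2.94% and 0.903% of all genes, though the 2 were then Flt1 and Nrp2. In the fit blocked on the set, all 5 receptor and co-receptor genes were called higher and 0 of the 4 ligands, against 5.88% of all genes called higher and 2.74% called lower. The median difference of the 5 was 0.30 and that of the 4 ligands 0.02, beside -0.02 over all genes.

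**Figure D1:**
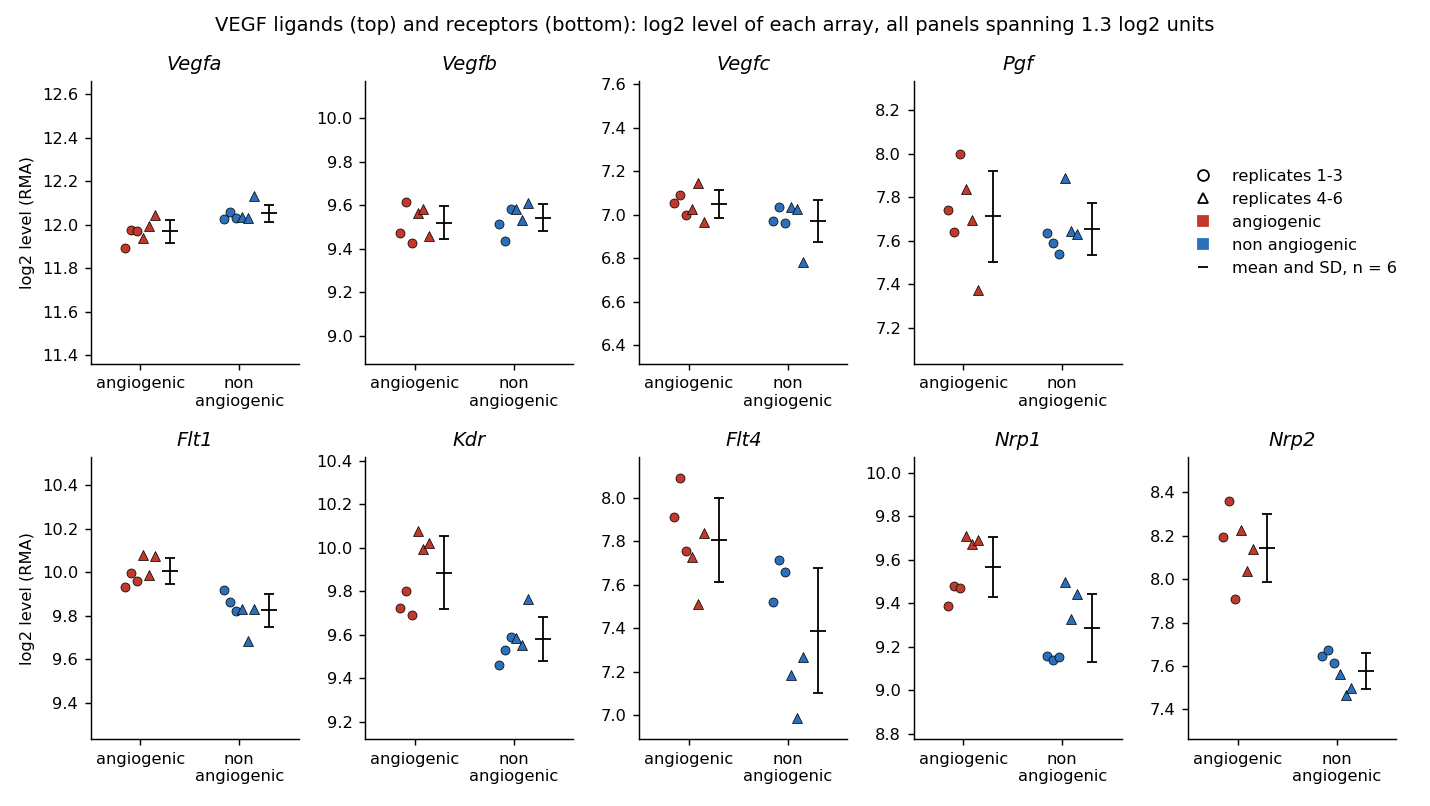
Log2 level of each VEGF ligand gene (top row) and receptor gene (bottom row) on the 12 arrays, with angiogenic islets in red and non angiogenic islets in blue, circles for replicates 1-3, triangles for replicates 4-6, and bars for the mean and SD of 6 arrays. The groups share a range for the 4 ligands, and every angiogenic array lies above every non angiogenic array for Flt1 and Nrp2.

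Among the ligands, Vegfa was not called in either direction. Its lowest, median and highest values were 11.89, 11.97 and 12.04 in angiogenic islets, against 12.02, 12.03 and 12.13 in non angiogenic islets. The groups overlapped through angiogenic replicate 6, which lay above 4 of the 6 non angiogenic arrays. The means were 11.97 ± 0.05 in angiogenic and 12.05 ± 0.04 in non angiogenic islets (SD, n = 6 each), and the difference of -0.08 (SE 0.04) was not called (limma, adjusted p = 0.413). Its 95% interval ran from -0.17 to 0.01, and the difference was -0.09 in replicates 1-3 and -0.07 in replicates 4-6. In replicates 1-3 all angiogenic arrays lay below all non angiogenic arrays, and in replicates 4-6 the groups overlapped. The cluster measures the gene as a whole and cannot separate the splice forms of VEGF-A, which differ in how they are held by the matrix.

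Vegfb and Vegfc did not pass the test either. Vegfb had 9.43, 9.52 and 9.61 as lowest, median and highest level in angiogenic islets, against 9.44, 9.56 and 9.61 in non angiogenic islets, nearly the same range, with a difference of -0.02 (SE 0.05, limma, adjusted p = 0.915). Vegfc had 6.97, 7.04 and 7.15 in angiogenic islets and 6.78, 6.998 and 7.04 in non angiogenic islets. The Vegfc groups overlapped, with 3 of 6 angiogenic arrays above the highest non angiogenic array, and the difference was 0.08 (SE 0.05, limma, adjusted p = 0.595).

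Pgf had the largest SD of the 4 ligands in either group (0.21 in angiogenic and 0.12 in non angiogenic islets, n = 6 each). Its values were 7.37, 7.72 and 8.00 in angiogenic islets, against 7.54, 7.63 and 7.89 in non angiogenic islets, so that the angiogenic arrays held both the highest and the lowest value. The difference over all arrays was 0.06 (SE 0.09, limma, adjusted p = 0.864), with a 95% interval from -0.13 to 0.25. In replicates 1-3 the difference was 0.20 and the arrays of the groups did not overlap, in replicates 4-6 it was -0.09 and they did. The change between the sets was not called (interaction -0.29, SE 0.16, limma, adjusted p = 0.787). A further ligand of VEGFR3, Vegfd, is not among the 9 genes and is given with the pathway genes.

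The sequences before the start of the 2 called genes, and of Flt1 for comparison as the receptor without a called difference whose groups were apart, show what the promoters hold. Each line gives the 250 bases before the RefSeq start of the gene (assembly GRCm38.p6), 5′ to 3′ on the gene's own strand. They lie at chr5:147726012-147726261 (minus strand) for Flt1, chr5:75978456-75978705 (minus strand) for Kdr and chr1:62703067-62703316 (plus strand) for Nrp2. Capitals mark the GC box letters GGGCGG on either strand, of which neighbouring matches can share a base, and the TATA box letters TATAAA on either strand.
Flt1: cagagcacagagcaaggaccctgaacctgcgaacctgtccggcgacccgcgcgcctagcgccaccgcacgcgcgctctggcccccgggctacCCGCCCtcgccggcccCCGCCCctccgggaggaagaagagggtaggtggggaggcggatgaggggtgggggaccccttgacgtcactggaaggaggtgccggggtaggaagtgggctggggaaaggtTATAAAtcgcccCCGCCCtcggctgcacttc
Kdr: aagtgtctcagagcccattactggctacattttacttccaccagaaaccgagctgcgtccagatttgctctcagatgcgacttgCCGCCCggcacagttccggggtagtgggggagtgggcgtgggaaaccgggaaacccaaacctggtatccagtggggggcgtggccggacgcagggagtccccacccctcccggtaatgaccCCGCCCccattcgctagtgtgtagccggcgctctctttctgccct
Nrp2: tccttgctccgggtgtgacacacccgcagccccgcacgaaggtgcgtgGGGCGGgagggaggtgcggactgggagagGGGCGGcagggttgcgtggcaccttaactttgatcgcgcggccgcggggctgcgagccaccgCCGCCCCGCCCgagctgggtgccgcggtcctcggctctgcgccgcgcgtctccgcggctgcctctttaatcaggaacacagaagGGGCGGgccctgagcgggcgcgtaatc
Nrp2 held 5 GC boxes and no TATA box. Flt1 held 3 GC boxes and was the one gene with a TATA box, which starts at position -31 counted from the gene start. Kdr held 2 GC boxes. Over the 11 RefSeq promoters of the 9 genes, Vegfa and Pgf having 2 each, 10 held a GC box and 1 a TATA box, against 32.7% and 12.4% of all promoter windows of that length. ACGTG, a form of the core that hypoxia-inducible factors bind, stood in 1 of the 11, against 16.6% of all windows. The other form, GCGTG, was not counted, though the Kdr and Nrp2 windows above hold it. It was the window of the inner Vegfa start (chr17:46025164-46025413, minus strand), which lies downstream of the other Vegfa start, within the gene. The window of the upstream Vegfa start (chr17:46032378-46032627) held no ACGTG. These matches are descriptions of letters in a short window and not binding sites.

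Kdr, which encodes VEGFR2, rose in angiogenic islets. Its lowest, median and highest levels were 9.69, 9.90 and 10.08 in angiogenic islets, against 9.46, 9.57 and 9.76 in non angiogenic islets. The groups overlapped through non angiogenic replicate 6, which lay above 2 angiogenic arrays of the other set, and within each set all angiogenic arrays were higher. The means of 9.88 ± 0.17 in angiogenic and 9.58 ± 0.10 in non angiogenic islets (SD, n = 6 each) differed by 0.30 (SE 0.08), a 1.23-fold rise (limma, adjusted p = 0.0323). The difference was 0.21 in replicates 1-3 and 0.40 in replicates 4-6, and with the set as a block the adjusted p was 0.00135. The call was lost without any 1 of angiogenic replicates 4, 5 and 6 or non angiogenic replicates 1, 2, 3, 4 and 5, with limma adjusted p between 0.0516 and 0.0857, and in the methods' per-gene test (adjusted p = 0.0736). In pools of whole islets, more cells of a type and more RNA per cell cannot be told apart.

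Flt1, which encodes VEGFR1, was higher on every angiogenic array but missed the threshold. Its levels were 9.93, 9.99 and 10.08 as lowest, median and highest in angiogenic islets, against 9.68, 9.83 and 9.92 in non angiogenic islets, and the groups did not overlap. That was so for 2 of the 9 genes, Flt1 and Nrp2, and for 2.85% of all genes with angiogenic islets above. The means were 10.01 ± 0.06 in angiogenic and 9.82 ± 0.08 in non angiogenic islets (SD, n = 6 each), a difference of 0.18 (SE 0.05, limma, adjusted p = 0.0506). The 95% interval ran from 0.08 to 0.29, and the set as a block gave an adjusted p of 0.0253. The difference was 0.10 in replicates 1-3 (limma, adjusted p = 0.486) and 0.27 in replicates 4-6 (limma, adjusted p = 0.0611). The groups were only narrowly apart, with 9.93 as lowest angiogenic and 9.92 as highest non angiogenic level, both in replicates 1-3. Without non angiogenic replicate 1 the difference over the arrays left was called (limma, adjusted p = 0.0423). The cluster cannot separate the membrane form from the soluble form.

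Flt4, which encodes VEGFR3, had the widest range of the 9 genes over the 12 arrays. Its levels were 7.51, 7.80 and 8.09 in angiogenic islets, against 6.99, 7.40 and 7.71 in non angiogenic islets. The overlap lay across the sets, since the 3 non angiogenic arrays of replicates 1-3 were all above the lowest angiogenic array, which was of replicates 4-6. Over all arrays the difference was 0.42 (SE 0.12, limma, adjusted p = 0.0791). It was 0.29 within replicates 1-3 and 0.55 within replicates 4-6, and with the set as a block the adjusted p was 0.00263. Replicates 4-6 were 0.36 below replicates 1-3 in Flt4 level (SE 0.08, limma, adjusted p = 0.00331). Without non angiogenic replicate 2 the group difference was called (limma, adjusted p = 0.0424).

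Nrp2 gave the clearest change of the 9 genes. Its levels were 7.91, 8.17 and 8.36 in angiogenic islets, against 7.47, 7.59 and 7.67 in non angiogenic islets, and the lowest angiogenic array stood well above the highest non angiogenic one. The means were 8.14 ± 0.16 in angiogenic and 7.58 ± 0.08 in non angiogenic islets (SD, n = 6 each), a rise of 0.57 (SE 0.07) or 1.48-fold (limma, adjusted p = 0.000157). The difference was 0.51 in replicates 1-3 and 0.63 in replicates 4-6, and the call held in 12 of 12 fits that left out 1 array, with adjusted p up to 0.000674.

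Nrp1, the co-receptor that binds VEGF-A together with VEGFR2, had levels of 9.39, 9.57 and 9.71 in angiogenic islets, against 9.14, 9.24 and 9.50 in non angiogenic islets. As for Kdr, the overlap came from arrays of different sets, with replicates 4-6 above replicates 1-3 by 0.26 (SE 0.04, limma, adjusted p = 0.000305), while Kdr was 0.20 higher there. The group difference of 0.28 (SE 0.08) was not called over all arrays (limma, adjusted p = 0.0650) and was called with the set as a block (adjusted p = 0.000277). It was 0.29 in replicates 1-3 and 0.27 in replicates 4-6, and it was called without angiogenic replicate 1 or non angiogenic replicate 4 (limma, adjusted p down to 0.0293).

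Within both sets, all 3 angiogenic arrays were above all 3 non angiogenic arrays for 5 of the 9 genes, the receptors and co-receptors, against 4.89% of all genes. The size of the group difference did not pass a test of change between the sets for any of the 9 (limma interaction, adjusted p between 0.784 and 0.977), as for nearly all genes, 0.00502% of which passed it. In order of the group difference, Nrp2 came first, followed by Flt4, Kdr, Nrp1 and Flt1. The intervals of neighbours in this order overlapped, from 0.42 to 0.72 for Nrp2, 0.15 to 0.68 for Flt4, 0.14 to 0.47 for Kdr, 0.11 to 0.45 for Nrp1 and 0.08 to 0.29 for Flt1.

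**Figure D2:**
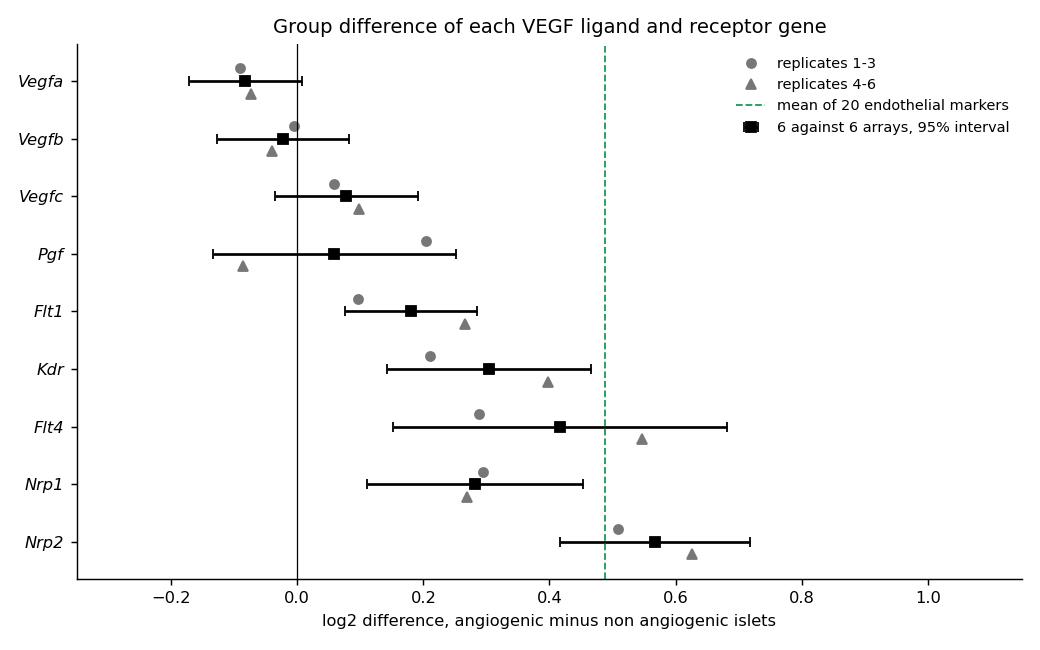
Log2 difference of each gene, angiogenic minus non angiogenic islets (x axis), with squares and 95% intervals for 6 against 6 arrays, circles for replicates 1-3 and triangles for replicates 4-6. The 5 receptor genes lie right of 0 in both sets, and the dashed line marks the difference of 0.49 in the mean of 20 endothelial markers.

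The receptors and co-receptors were then set beside endothelial markers. Both neuropilins are also found outside endothelium, so a comparison with these markers does not give a level per carrying cell. Of 20 endothelial markers, 16 were called higher and 0 lower in angiogenic islets, with a median difference of 0.46. The study itself names 5 of the 20 as changed in these samples (Pecam1, Cdh5, Cd34, Tek and Eng), so their part of the count is not independent. Their mean level per array lay between 9.02 and 9.19 in angiogenic islets, against 8.54 and 8.69 in non angiogenic islets, a difference of 0.49 in each set. The markers ran from Sox17, an endothelial transcription factor, at 0.15 to Cd93, a surface glycoprotein of growing vessels, at 0.83. Of the 20, 19 had a larger difference than Flt1, 17 a larger one than Kdr and 7 a larger one than Nrp2.

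The level of a receptor minus the mean of the 20 markers was therefore taken on each array and compared between the groups by exact two-sided permutation of the 12 arrays (924 arrangements, smallest possible p = 0.00216). The offset itself has no meaning between probes, and only its change between groups is read. For Flt1 the offset was 0.80 to 1.002 in angiogenic islets, against 1.13 to 1.28 in non angiogenic islets, without overlap. Flt1 thus differed by 0.31 less than the mean of the markers (-0.31, SE 0.04, exact permutation p = 0.00216, adjusted over the 5 genes compared 0.0108). The SE and p of an offset cover the spread among arrays only. They leave out the choice of markers and the spread among them, whose differences ran from 0.15 to 0.83. For Kdr the change of the offset was -0.18 (SE 0.07, exact permutation p = 0.0433, adjusted 0.0758) and for Nrp1 -0.21 (SE 0.08, exact permutation p = 0.0455, adjusted 0.0758), neither of which passed after adjustment. Permuted within the sets of arrays, the adjusted exact p of Flt1, Kdr and Nrp1 was 0.00833 each. The unadjusted exact permutation p was 0.005 for each, the smallest that this test allows, so it does not rank them. Without the 5 markers the study names, the change was -0.24 for Flt1 (adjusted exact permutation p = 0.0108), -0.12 for Kdr and -0.14 for Nrp1 (adjusted exact permutation p = 0.192 for both). Against the median of the markers in place of their mean it was -0.21 for Flt1 (adjusted exact permutation p = 0.0325), -0.089 for Kdr and -0.11 for Nrp1.

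For Flt4 the change was -0.07 (SE 0.14, exact permutation p = 0.600) and for Nrp2 0.08 (SE 0.06, exact permutation p = 0.240), and the groups overlapped for both. The change for Flt4 was -0.20 in replicates 1-3 and 0.06 in replicates 4-6, and for Nrp2 0.02 and 0.14. How far different probes respond to an equal change of RNA is not known for these arrays, and RMA compresses weak signals.

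**Figure D3:**
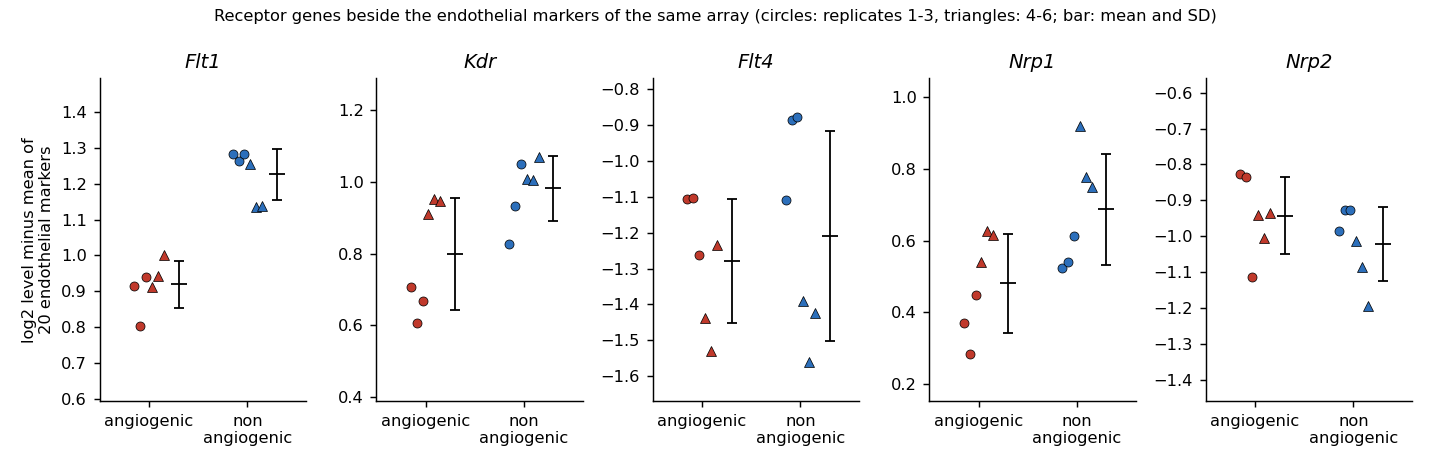
Level of each receptor gene minus the mean of 20 endothelial markers on the same array, in log2 units, with angiogenic islets in red and non angiogenic islets in blue, circles for replicates 1-3, triangles for replicates 4-6, and bars for the mean and SD. All 6 angiogenic arrays lie below all 6 non angiogenic arrays for Flt1, whose mean offset was 0.92 in angiogenic and 1.23 in non angiogenic islets.

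Other cell types moved with the receptors. Pericyte and smooth muscle markers were called higher for 10 of 12, with list means of 8.18 to 8.51 in angiogenic and 7.60 to 7.73 in non angiogenic islets. Fibroblast markers were called higher for 10 of 12 (8.82 to 9.11 in angiogenic, 7.76 to 8.14 in non angiogenic islets) and macrophage markers for 9 of 14 (8.41 to 8.80 in angiogenic, 8.00 to 8.29 in non angiogenic islets). The study itself names 5 of the 12 pericyte and smooth muscle markers, 9 of the 12 fibroblast markers and 3 of the 14 macrophage markers as changed on these arrays, so those parts of the counts are not independent. Of the markers it does not name, 5 of 7 pericyte and smooth muscle, 2 of 3 fibroblast and 6 of 11 macrophage markers were called higher. Both neuropilins are known in several of these cells, and the part of each cell type in the receptor values was not tested.

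Of 5 lymphatic markers measured, which bear on Flt4, limma called 1 higher and 0 lower, and the methods' test called 0. The 1 was Pdpn, which podocytes and fibroblasts also carry, at 0.24 (SE 0.06, limma, adjusted p = 0.0426). Its call was lost in the methods' test (adjusted p = 0.0687) and without any 1 of angiogenic replicates 1, 4, 5 and 6 or non angiogenic replicates 2, 3, 4 and 5 (limma, adjusted p between 0.0584 and 0.109). Lyve1, a hyaluronan receptor of lymphatic vessels, had a difference of -0.16 (SE 0.09, limma, adjusted p = 0.525), and Mmrn1 one of 0.12 (SE 0.07, limma, adjusted p = 0.518). Prox1 had the highest level of the 5, 10.05 in angiogenic and 10.10 in non angiogenic islets, with a difference of -0.05 (SE 0.04, limma, adjusted p = 0.704). Which cells of a pool carry these markers was not tested. The list means, raised by Prox1, ran from 7.56 to 7.83 in angiogenic and from 7.63 to 7.80 in non angiogenic islets.

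Markers of beta cells, a source of VEGF-A, were called lower for 1 of 11 and higher for 0, with list means of 11.83 to 11.97 in angiogenic and 11.83 to 12.08 in non angiogenic islets. The 1 was Ucn3, a marker of mature beta cells, which fell by 0.25 on the log2 scale (SE 0.06, limma, adjusted p = 0.0285). Its call was lost without any 1 of angiogenic replicates 1, 2, 5 and 6 or non angiogenic replicates 4, 5 and 6 (limma, adjusted p between 0.0539 and 0.0677), and with the set as a block 3 beta cell markers were called lower. Among other islet endocrine markers 3 of 7 were called lower, Sst, Pyy and Gcg, and 0 higher. Acinar markers, from exocrine tissue carried over with the islets, ranged widely in both groups, with list means of 7.78 to 11.05 in angiogenic and 7.57 to 12.21 in non angiogenic islets and 0 of 10 called by limma or the methods' test, nor any at an unadjusted p under 0.05. With their mean as a covariate, a fit added after the data were seen, Kdr, Flt4 and Nrp2 were called higher (limma, adjusted p = 0.0420, 0.0161 and 0.000101). The other VEGF genes were not called, with limma adjusted p of 0.0557 for Flt1 and 0.0671 for Nrp1. The share of all genes called in that fit was not counted. Of 10 neutrophil, 4 ductal and 3 erythroid markers limma and the methods' test called 0, and at an unadjusted p under 0.05 from limma 1 neutrophil marker was lower and 1 erythroid marker higher. The neutrophil list means were low, 5.49 to 5.64 in angiogenic and 5.47 to 5.69 in non angiogenic islets, where RMA compresses differences.

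Among the genes that release, hold or modulate VEGF and its receptors, 10 of 20 were called higher and 0 lower by limma and by the methods' test, with a median difference of 0.27 beside -0.02 over all genes, and at an unadjusted p under 0.05 from limma 13 were higher and 0 lower. Mmp2, a gelatinase that can free matrix-bound VEGF, averaged 9.50 ± 0.43 in angiogenic and 8.06 ± 0.32 in non angiogenic islets (SD, n = 6 each), a 2.70-fold rise (limma, adjusted p = 0.000247). Ccn2, the connective tissue growth factor, which binds VEGF-A, rose 2.34-fold (SE 0.10 on the log2 scale, limma, adjusted p = 4.4e-06). Cdh5, the endothelial cadherin that associates with VEGFR2 and is also one of the 20 markers, rose 1.70-fold. These 3 were named by rule, and the others named here were picked after their values were seen. The study itself names 4 of the 20 as changed on these arrays (Mmp2, Ccn2, Cdh5 and Hspg2), so their part of the count is not independent, and 6 of the other 16 were called higher.

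Vegfd, the ligand of VEGFR3 outside the 9 genes, averaged 6.98 ± 0.19 in angiogenic and 6.50 ± 0.12 in non angiogenic islets (SD, n = 6 each) and rose by 0.47 (SE 0.09, limma, adjusted p = 0.00382), with no overlap between the groups. Its level was low on the array, where RMA compresses differences. The genes that process VEGF-C, Adamts3 and Ccbe1, had differences of 0.01 and 0.17 and were not called. Mmp9, another gelatinase that can release VEGF, had a difference of 0.11 (SE 0.07, limma, adjusted p = 0.589). Its means of 6.44 in angiogenic and 6.34 in non angiogenic islets were below those of Vegfd, so the same limit holds for it.

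Of 3 listed genes that act in receptor uptake and trafficking, Dab2, an endocytic adaptor, was called at 0.66, Efnb2, an ephrin that controls receptor internalisation, was called at 0.32, and Gipc1, a trafficking adaptor, had 0.01 (limma, adjusted p = 0.970). Ptprb, the endothelial phosphatase that acts on VEGFR2 and a marker as well, rose by 0.56. The other listed phosphatases, Ptprj, Ptpn1 and Ptpn11, had differences of -0.16, -0.08 and -0.06 and were not called. With the set as a block Ptprj was called lower (limma, adjusted p = 0.0431). Of 3 listed proteoglycans, Hspg2 (perlecan) was called at 0.53, Gpc1 (glypican) was called at 0.21, and Sdc1 (syndecan) had 0.29 and was not called (limma, adjusted p = 0.0846). The call of Gpc1 was lost without any 1 of angiogenic replicates 1, 2, 5 and 6 or non angiogenic replicates 2, 4, 5 and 6 (limma, adjusted p between 0.0612 and 0.0929).

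Of 26 signal transducers that act inside the cell, limma called 1 higher and 0 lower, a count near the 3.55% and 0.948% of all genes, with a median difference of 0.01. At an unadjusted p under 0.05 the counts were 4 and 2, beside 7.76% and 6.59% of all genes, and the methods' test called 0 higher and 1 lower. The 1 was Fyn, a Src family kinase recruited to VEGFR2, which rose by 0.44 (SE 0.10, limma, adjusted p = 0.0171). Nos3, the endothelial nitric oxide synthase, had a difference of 0.24 (SE 0.07, limma, adjusted p = 0.0610), and Gab1, a docking protein, one of 0.22 (SE 0.08, limma, adjusted p = 0.148). Most of these genes are used by every cell type of an islet.

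**Figure D4:**
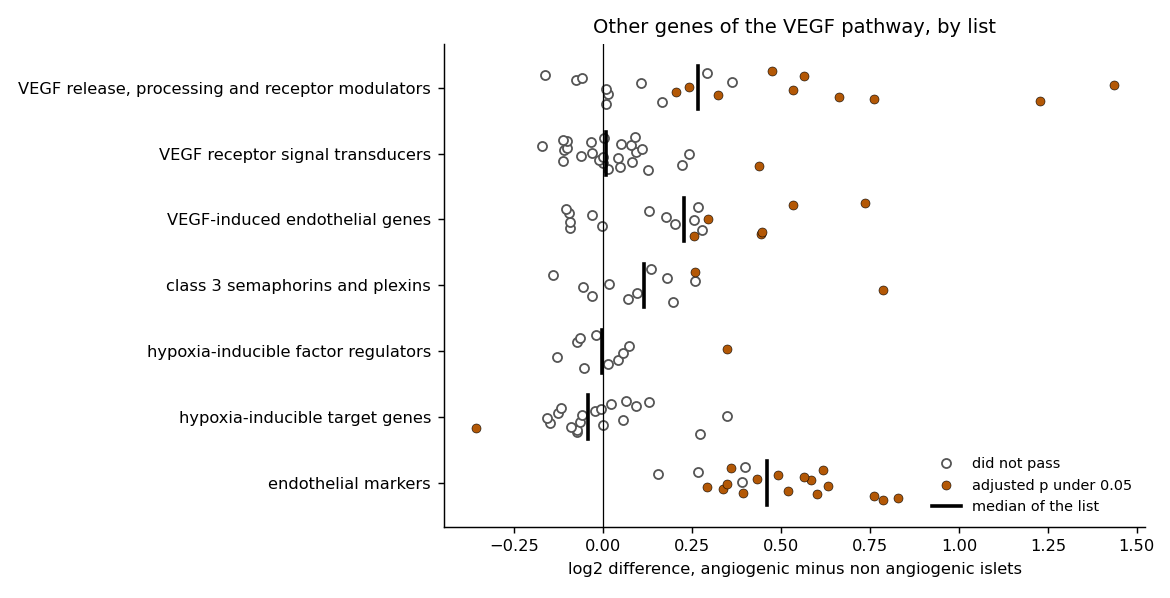
Log2 difference, angiogenic minus non angiogenic islets (x axis), of each gene in 7 lists, filled where limma's adjusted p was under 0.05 and open otherwise, with a bar at the median of a list. Modulators, VEGF-induced genes and endothelial markers lie mostly right of 0, with medians of 0.27, 0.23 and 0.46, and signal transducers and hypoxia genes centre near 0.

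Genes known to be induced by VEGF in endothelial cells were called higher for 6 of 18 and lower for 0 by limma and by the methods' test, with a median difference of 0.23, and at an unadjusted p under 0.05 from limma for 11 and 0. The leading 3 were Vcam1, a leukocyte adhesion molecule that the study also names as changed, at 0.73 (SE 0.11, limma, adjusted p = 0.00111), Unc5b, a netrin receptor of sprouting vessels, at 0.53 (SE 0.08, limma, adjusted p = 0.000924) and Ccn1, a matrix protein, at 0.45 (SE 0.09, limma, adjusted p = 0.00853). The others were Apln, a peptide of sprouting tip cells, at 0.44, Hlx, a transcription factor, at 0.29 and Angpt2, which destabilises vessels, at 0.26, and were named after their values were seen. Nr4a1, Egr3 and Rcan1, also of this list, were not called, at -0.03, 0.00 and -0.10.

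Class 3 semaphorins and plexins, the other partners of the neuropilins, were called higher for 2 of 12 and lower for 0 by limma, with a median difference of 0.11. The methods' test called 1 higher and 1 lower, and at an unadjusted p under 0.05 from limma 6 were higher and 1 lower. Plxnd1, a plexin of endothelial cells that the study also names as changed, averaged 9.70 ± 0.24 in angiogenic and 8.91 ± 0.21 in non angiogenic islets (SD, n = 6 each), a 1.73-fold rise (limma, adjusted p = 0.000711). Sema3f, a ligand of neuropilin 2, rose by 0.26 (SE 0.06, limma, adjusted p = 0.0302), a call lost in the methods' test (adjusted p = 0.0534) and without any 1 of angiogenic replicates 2, 3, 5 and 6 or non angiogenic replicates 3, 4, 5 and 6 (limma, adjusted p between 0.0554 and 0.0701). Sema3c had a difference of 0.26 as well but a wider error (SE 0.10, limma, adjusted p = 0.232).

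Counts of the oxygen-sensing genes that act upstream of Vegfa, and of the genes induced with it by low oxygen, are read beside those of all genes given above (3.55% higher and 0.948% lower by limma, 7.76% and 6.59% at an unadjusted p under 0.05). Of 10 regulators of hypoxia-inducible factors, 1 was called higher and 0 lower by limma, 0 by the methods' test in either direction, with a median difference of 0.00, and at an unadjusted p under 0.05 from limma 1 was higher and 0 lower. It was Epas1, which encodes the HIF-2α typical of endothelium, at 0.35 (SE 0.08, limma, adjusted p = 0.0260), a call lost without any 1 of angiogenic replicates 2, 4 and 6 or non angiogenic replicates 5 and 6 (adjusted p between 0.0558 and 0.0647), while Egln2, an oxygen sensor, had -0.13 and Hif1an, an asparagine hydroxylase, had -0.07. Of 20 hypoxia-inducible targets, 0 were called higher and 1 lower by limma and by the methods' test, with a median of -0.04, and at an unadjusted p under 0.05 from limma 2 were higher and 3 lower. Bnip3, a mitophagy receptor, averaged 9.35 ± 0.12 in angiogenic and 9.71 ± 0.16 in non angiogenic islets (SD, n = 6 each) and fell by 0.36 on the log2 scale (limma, adjusted p = 0.0131). Ldha, lactate dehydrogenase, had a difference of 0.35 (SE 0.12, limma, adjusted p = 0.150) and Adm, adrenomedullin, one of 0.27 (SE 0.12, limma, adjusted p = 0.291). With the set as a block Ldha was called higher (limma, adjusted p = 0.000195) and Adm was not (limma, adjusted p = 0.0631). Within each set all angiogenic arrays lay above all non angiogenic arrays for Ldha.

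Genes whose pattern was most like that of each member were found by Pearson correlation over the 12 arrays after the mean of each set was taken off, as a description, in which the points share the group difference. For Kdr the closest were Prex1 (r = 0.98), Pdgfb (r = 0.98), the growth factor by which endothelial cells recruit pericytes, Ctsw (r = 0.97), Slfn5 (r = 0.96) and Prmt8 (r = 0.96). For Nrp2 they were Stab1 (r = 0.99), Mrc1 (r = 0.98), which is the mannose receptor of macrophages, P2ry13 (r = 0.98), Fxyd5 (r = 0.98) and Lgals1 (r = 0.98). Nrp1 was closest to Cnn2, S1pr3, Rasgrp3, Des and Lamb1 (r between 0.97 and 0.98), of which Des encodes the desmin of pericytes and muscle. For Flt1 they were Bmp5, Elk3, Flrt2, Parp3 and Cyyr1 (r between 0.95 and 0.96), and for Flt4 Exo1, Hdac7, Slc35f3, Mboat1 and Prex1 (r between 0.94 and 0.98).

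Among the ligands, Vegfa was closest to Il17b, Gm10549, Mettl21e, Zfp457 and Zc3h10 (r between 0.90 and 0.92), none of them called between the groups. Vegfb was closest to Wbp1l, Micos13, Fibp, Nudt14 and Dync2li1 (r between 0.92 and 0.95), Vegfc to Elovl7, Psph, Psma4, Dnajc9 and Osgin1 (r between 0.82 and 0.86), and Pgf to Atp6v0b, Snord49a, Nmrk1, Syce2 and Snord15a (r between 0.88 and 0.91).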

How the data were processed

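The values deposited by the authors are log2 levels, 1 per transcript cluster and array. The submitters' processing notes name RMA and Affymetrix Expression Console, without versions. RMA gives all arrays the same distribution and compresses weak signals, so a change in total RNA per islet cannot be seen. Whether all 12 arrays were processed together is not given in the sources used here. The number of arrays limits the precision.

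Clusters with exactly 1 symbol in the platform annotation were kept (21789 of 35556, with 1621 holding several symbols and 12146 unnamed), and 999 genes with more clusters were represented by their brightest. R 4.3.3 and limma 3.58.1 (lmFit and eBayes, two-sided, no covariate) were used and tested on simulated data. Members, lists, the sets of arrays and tests were chosen with earlier results of these data known, and several lists hold genes that the study itself names as changed in these samples, counted beside their results. Named genes are all 9 members, the 3 largest differences of each list, called ones first, and the 5 genes closest to each member by correlation. Other genes were named after their values were seen. Of the lists, 17 symbols had no row of their own with a single symbol and are not reported here, and Cyr61 was matched as Ccn1. Vegfa and Pgf had 2 RefSeq promoters each and the other 7 genes 1 each. The alternatives were the methods' t-test, array weights, an intensity trend, quantile normalization, median centring, a filter on dim genes, averaged clusters, blocks for the set or the replicate number, each set alone, leaving out each array in turn and, added after the data were seen, the acinar marker mean as a covariate.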

Additional observations from a re-analysis of the deposited data

Results flagged for a closer look

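Among 18 groups of 6 arrays, a group for each of the 9 genes and both conditions, 3 held an array that stood apart from the others by Dixon's criterion, where chance gives about 1 in 20 groups. All 3 were ligand genes in non angiogenic islets. Vegfa was 12.13 in non angiogenic replicate 6, above the rest. Vegfc was 6.78 in non angiogenic replicate 6, below the rest. Pgf was 7.89 in non angiogenic replicate 4, above the rest. None of these genes was called between the groups with or without that array, and the interaction of group with the set of arrays passed the test for 0 of the 9 genes after adjustment (limma) and for 0 at an unadjusted p under 0.05.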

How the results depend on the processing

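Every member kept its direction in all alternatives except Pgf, which was -0.086 in replicates 4-6 alone. The 2 members called higher became 4 with array weights, 5 with the set block, 5 with the replicate block, and 1 to 3 when 1 array was left out. The set block called 5.88% of all genes higher, against 3.55% without a block. For array weights, the replicate block and the fits without 1 array, the share of all genes was not counted. Counts from those fits are therefore not read as a result about the members. No source pairs the arrays by number. The deviations of same-numbered arrays correlated at r between 0.03 and 0.54, and between -0.34 and 0.12 once the mean of each set was taken off, with 2 of 6 arrays closest to their own number, so the replicate block is given here alone. The offset of Flt1 from the endothelial markers was -0.31 with the replicate block but its adjusted exact permutation p was 0.0521 (the unadjusted p was the smallest that 6 pairs allow), and it was -0.39 in replicates 1-3 and -0.22 in replicates 4-6, each too few arrays to pass an exact test. Permuted within the sets, the offsets of Kdr (-0.18) and Nrp1 (-0.21) passed. Leaving out 1 array gave -0.21 to -0.14 for Kdr, which passed in 1 such fit (without non angiogenic replicate 1). The offset of Flt4 was 0.023 against the median of the markers and 0.058 in replicates 4-6. Signal transducers called higher were 0 in the t-test, 2 with quantile normalization, 2 with the set block, 2 in replicates 4-6 and 1 to 2 without 1 array, and those called lower were 1 in the t-test, with array weights, with median centring, without dim genes, with the set block and with the replicate block and 0 to 1 without 1 array. Modulators called higher were 6 in replicates 1-3, and 1 was lower with the set block. Hypoxia factor regulators called higher were 0 in the t-test, with quantile normalization and in replicates 1-3, and 0 to 1 without 1 array. Hypoxia targets called higher were 1 with the set block, in each set alone and with the replicate block, and those called lower were 0 with the mean of clusters and in replicates 4-6. VEGF-induced genes called higher were 10 with the set block and 3 in replicates 1-3. Semaphorins and plexins called higher were 1 in the t-test, with median centring, with quantile normalization, in replicates 1-3 and 1 to 2 without 1 array, and 1 was lower in the t-test. The causes were not tested.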
